A study of Saccharomyces eubayanus and Saccharomyces cerevisiae x Saccharomyces eubayanus with 20 samples.

Results

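The galactose genes described here are GAL1, GAL2, GAL3, GAL4, GAL7, GAL10 and GAL80, which encode the permease, the enzymes and the switch of galactose use in Saccharomyces yeasts. The 7 names were chosen with earlier results of these data known. Rows were then taken by name alone: every row of the expression tables that carried 1 of these standard names was taken, whatever its value. In the S. eubayanus strains 8 of 5513 rows met this rule, because GAL80 was annotated on both chromosome 10 and chromosome 13. In the hybrid 17 of 11292 rows met it, 8 on the S. eubayanus genome (5511 rows) and 9 on the S. cerevisiae genome (5781 rows), where GAL1 was divided into 2 neighbouring gene models and GAL10 was annotated on both chromosome 2 and chromosome 6. Prefixes Se and Sc mark the S. eubayanus and the S. cerevisiae copy.

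In budding yeast the GAL genes are the classic example of a regulated sugar pathway. The activator Gal4 binds upstream of the structural genes and is held inactive by Gal80 until galactose and ATP bind the sensor Gal3, which then draws Gal80 away. Glucose represses the pathway through the repressor Mig1, and this repression is lifted on other carbon sources by the Snf1 kinase. Without galactose and without glucose, S. cerevisiae GAL genes are in general neither repressed nor induced. No culture of the series was supplied with galactose.

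The series contains RNA sequencing of duplicate shake-flask cultures, grown on 20 g per liter of maltotriose, maltose or glucose to mid-exponential phase, and asks how α-oligoglucoside use was restored in a Himalayan S. eubayanus. Strain IMX1939 is CDFM21L.1 with both SeMALT1 alleles deleted (Semalt1Δ/Semalt1Δ) and with ScMAL13, a maltose regulator gene from S. cerevisiae, in place of both SeSGA1 alleles (Sesga1Δ::ScMAL13/Sesga1Δ::ScMAL13). Strain IMX1765 carries the same ScMAL13 integration and has SeMALT1. In both strains ScMAL13 is transcribed from the ScPGK1 promoter, which the paper describes as constitutive. The wild-type parent CDFM21L.1, which does not use either α-oligoglucoside, was sampled on glucose only. HTS020 is a single hybrid line made by mating spores of CDFM21L.1 and of S. cerevisiae CBC-1, without an integrated ScMAL13 cassette, and was sampled on all 3 sugars. This gave 10 groups of 2 cultures. The paper's methods give a higher optical density at sampling on maltotriose than on the other sugars, whereas the sample descriptions give 12.5. Culture density and sugar therefore cannot be told apart in the maltotriose comparisons.

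To show what is known of the promoters whose transcripts are described, the letters bound by Gal4 were looked up in the S. cerevisiae S288C reference (R64, RefSeq), which is neither the CBC-1 nor the CDFM21L.1 genome. The motif searched was CGG and CCG separated by any 11 bases, which reads the same on both strands, in the 500 bases before each start codon, and matches may overlap each other. It occurred in 179 of 6000 such windows (2.98%) and in those of all 7 galactose genes. GAL1 and GAL10 are transcribed away from each other, and the 668 bases between them held 3 matches that both windows share. The stretch with these 3 matches lies at chr2:278558-278631, is printed on the GAL1 strand, and has the matches in capitals, the second and the third being 1 base apart.

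GAL1-GAL10 stretch: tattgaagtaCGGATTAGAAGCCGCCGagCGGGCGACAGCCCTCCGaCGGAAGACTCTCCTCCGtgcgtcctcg

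Single matches stood before GAL7, GAL3, GAL80 and GAL4, and 4 matches, of which the last pair overlap, stood before GAL2. They are shown on the strand of each gene, with the match in capitals, to compare the genes of the enzymes, the sensor, the repressor and the activator.

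GAL7, chr2:275703-275719, minus strand: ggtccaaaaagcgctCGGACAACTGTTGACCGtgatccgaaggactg
GAL2, first match, chr12:289796-289812, plus strand: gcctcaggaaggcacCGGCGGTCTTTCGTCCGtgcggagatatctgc
GAL3, chr4:463146-463162, plus strand: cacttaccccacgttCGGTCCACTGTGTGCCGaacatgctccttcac
GAL80, chr13:171422-171438, plus strand: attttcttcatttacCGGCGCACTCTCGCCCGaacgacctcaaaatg
GAL4, chr16:82810-82826, minus strand: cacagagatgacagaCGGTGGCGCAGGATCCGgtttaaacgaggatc

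The match before GAL4 began 470 bases from the start codon, against 172 bases for GAL80, 192 bases for GAL7 and 288 bases for GAL3. Variants of the site of the glucose repressor Mig1, which are CCGGGG, then GCGGGG, further CTGGGG and lastly GTGGGG, occurred on either strand in 22.7% of the windows of the genome. They occurred 2 times each before GAL1, GAL10, GAL3 and GAL4, once before GAL80, and not before GAL7 or GAL2. The 2 before GAL1 and the 2 before GAL10 are the same places, in the region that both windows share. These matches describe the S288C letters only.

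Reads counted on genes numbered 318922 in the first IMX1765 maltotriose culture and 16874233 to 27175322 in the other 19 libraries. In that shallow library the 8 galactose rows rested on 2 to 28 reads, so values are given with and without it. The strain labels were in keeping with the integrated and deleted genes: ScMAL13 had 4 and 6 reads in CDFM21L.1 and at least 226 in every IMX1765 and IMX1939 library, and SeMALT1 had 23 to 46 reads in IMX1939 on both α-oligoglucosides, against 633 to 859 in the deep IMX1765 libraries on them. In HTS020, 48.0% to 50.6% of reads fell on S. eubayanus genes. The sample descriptions of 3 HTS020 libraries (the first maltose culture and both maltotriose cultures) name another medium than their titles and carbon source fields, which were followed here. Levels are FPKM (fragments per kilobase of gene, scaled to the size of the library), a share of the library, in which less RNA of a gene and more RNA of all others cannot be told apart.

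On glucose the galactose genes were transcribed at low and unequal levels. In CDFM21L.1, SeGAL3 averaged 22.6 ± 1.11 FPKM, SeGAL2 19.4 ± 0.82, the chromosome 13 SeGAL80 15.8 ± 1.6 and SeGAL7 12.3 ± 1.96 (SD, n = 2 each). Below them stood SeGAL4 with 6.90 ± 0.0941 FPKM, the chromosome 10 SeGAL80 with 6.67 ± 0.25, SeGAL10 with 3.26 ± 0.52 and SeGAL1 with 2.78 ± 0.00296 (SD, n = 2 each). In this order SeGAL2 and the chromosome 13 SeGAL80 differed by more than their spread, whereas SeGAL4 and the chromosome 10 SeGAL80, and SeGAL10 and SeGAL1, each differed by less than their 2 SDs added together. The sensor gene SeGAL3 was thus the most abundant of the set, and the epimerase and galactokinase genes stood lowest.

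**Figure D1:**
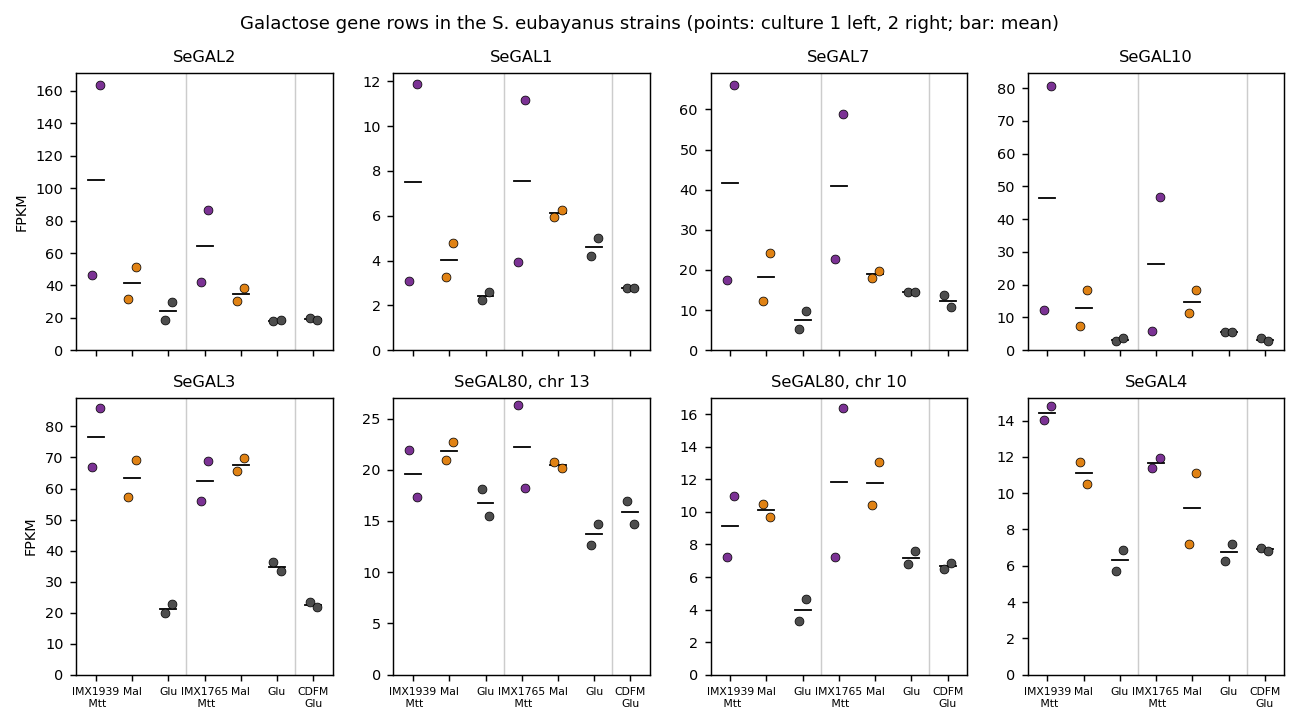
Level in FPKM (y axis, linear from 0) of the 8 S. eubayanus galactose gene rows in each culture of IMX1939, IMX1765 and CDFM21L.1 on maltotriose (Mtt), maltose (Mal) or glucose (Glu); points are cultures and bars are means. On maltotriose the second cultures stand far above the first for SeGAL2, SeGAL1, SeGAL7 and SeGAL10 in both strains (80.6 against 12.4 FPKM for SeGAL10 in IMX1939), whereas the levels of SeGAL4 in IMX1939 lie at 14.1 and 14.8 FPKM.

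Growth of IMX1939 on maltotriose was compared with growth on glucose to see which genes follow the sugar in the strain without SeMALT1. Of the 8 rows, 6 rose and none fell (limma adjusted p under 0.05 over 5404 genes), while 23.8% of all genes tested rose. SeGAL1 and the chromosome 13 SeGAL80 did not pass. The median difference of the 8 rows was 1.44 on the log2(FPKM + 1) scale, on which all differences below are given, and 0.05 over all genes tested.

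The structural genes had the widest spread. SeGAL10, which encodes the epimerase, had 12.4 and 80.6 FPKM on maltotriose, against 2.82 and 3.71 FPKM on glucose, a log2 difference of 2.96 ± 0.93 (SE, limma adjusted p = 0.0307). SeGAL7, the gene of the uridylyltransferase, had 17.5 and 66.0 FPKM on maltotriose, against 5.33 and 9.68 FPKM on glucose (2.10 ± 0.60, adjusted p = 0.0215). SeGAL2, the gene of the galactose permease, had 46.2 and 164 FPKM on maltotriose, against 18.5 and 29.9 FPKM on glucose (1.84 ± 0.53, adjusted p = 0.0227). In all 3 genes both maltotriose cultures lay above both glucose cultures, and the second maltotriose culture carried most of the difference. The galactokinase gene SeGAL1 had 3.11 and 11.9 FPKM on maltotriose, against 2.23 and 2.62 FPKM on glucose, without passing the test (1.09 ± 0.51, adjusted p = 0.116).

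Among the regulators the 2 maltotriose cultures lay closer together than for the structural genes. SeGAL3, the gene of the sensor, had 66.9 and 86.0 FPKM on maltotriose, against 19.8 and 22.8 FPKM on glucose, a 3.598 ± 0.731-fold difference of the means (1.79 ± 0.18, adjusted p = 0.000205). SeGAL4, the gene of the activator, had 14.1 and 14.8 FPKM on maltotriose, against 5.70 and 6.89 FPKM on glucose (1.09 ± 0.20, adjusted p = 0.00381). The chromosome 10 SeGAL80 row had 7.23 and 11 FPKM on maltotriose, against 3.31 and 4.67 FPKM on glucose (1.01 ± 0.33, adjusted p = 0.0363). The chromosome 13 SeGAL80 row had 21.9 and 17.3 FPKM on maltotriose, against 18.1 and 15.5 FPKM on glucose, and its groups overlapped (0.21 ± 0.20, adjusted p = 0.436). The calls of SeGAL3 and SeGAL4 held with each culture left out, at adjusted p of 0.00121 to 0.00323 and 0.0110 to 0.0368. Without the second maltotriose culture, or without the first glucose culture, these were the only 2 rows called. Without the second glucose culture 5 rows were called and without the first maltotriose culture 7. Under both other scalings the chromosome 10 SeGAL80 was also lost, as was SeGAL10 under quantile normalization.

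On maltose 3 of the 8 rows rose in IMX1939, beside 13.8% of all genes, and none fell. The row medians were 0.95 for the galactose genes and 0.10 for all genes. SeGAL3 had 57.2 and 69.3 FPKM on maltose, against 19.8 and 22.8 FPKM on glucose (1.53 ± 0.18, adjusted p = 0.000388). The chromosome 10 SeGAL80 had 10.5 and 9.69 FPKM on maltose, against 3.31 and 4.67 FPKM on glucose (1.17 ± 0.33, adjusted p = 0.0390). SeGAL4 had 11.7 and 10.5 FPKM on maltose, against 5.70 and 6.89 FPKM on glucose (0.73 ± 0.20, adjusted p = 0.0368). Of these, SeGAL3 alone was called whichever culture was left out and under both other scalings. SeGAL80 on chromosome 10 and SeGAL4 were lost in each of these cases, with adjusted p of 0.0674 to 0.212 and 0.0667 to 0.204 over the cultures left out.

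The structural genes did not pass on maltose. SeGAL10 had 7.54 and 18.4 FPKM on maltose, against 2.82 and 3.71 FPKM on glucose (1.6 ± 0.93, adjusted p = 0.308). SeGAL7 had 12.4 and 24.2 FPKM on maltose, against 5.33 and 9.68 FPKM on glucose (1.16 ± 0.60, adjusted p = 0.249). SeGAL2 had 31.6 and 51.3 FPKM on maltose, against 18.5 and 29.9 FPKM on glucose (0.75 ± 0.53, adjusted p = 0.427). In each of the 3 genes both maltose cultures exceeded both glucose cultures, without passing the test.

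In IMX1765, which has SeMALT1, a single row rose on either sugar. On maltose SeGAL3 had 65.7 and 69.7 FPKM, against 36.3 and 33.4 FPKM on glucose (0.94 ± 0.18, adjusted p = 0.00900), while 7.40% of all genes rose. This call was lost with any 1 of the 4 cultures left out (adjusted p of 0.0594 to 0.0948). On maltotriose SeGAL3 had 56.0 FPKM in the shallow and 69.0 FPKM in the second culture, against 36.3 and 33.4 FPKM on glucose (0.82 ± 0.18, adjusted p = 0.0308), while 4.59% of all genes rose. The medians of the 8 rows were 0.59 on maltose and 0.77 on maltotriose, and those of all genes -0.05 and -0.04.

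The first IMX1765 maltotriose culture decided much of the maltotriose result. SeGAL10 had 5.97 FPKM in it, from 4 reads, and 46.9 FPKM in the second culture, from 1830 reads, against 5.44 and 5.67 FPKM on glucose (1.48 ± 0.93, adjusted p = 0.347). SeGAL2 had 41.9 and 86.6 FPKM on maltotriose, against 17.8 and 18.4 FPKM on glucose (1.68 ± 0.53, adjusted p = 0.0956). SeGAL7 had 22.8 and 58.9 FPKM on maltotriose, against 14.5 and 14.4 FPKM on glucose (1.29 ± 0.60, adjusted p = 0.224). Without the shallow culture the log2 difference was 2.87 for SeGAL10 and 2.19 for SeGAL2, from the single remaining maltotriose culture, which is assumed to vary like the other groups. Without the second culture SeGAL3 was not called and the chromosome 13 SeGAL80 was the 1 row called. With either glucose culture left out no row was called, and the adjusted p of SeGAL3 ranged from 0.00662 to 0.223 over the 4 cultures. Voom on the recovered reads called 4 rows, and rescaling by median ratio called none.

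The remaining rows of IMX1765 did not pass on either sugar. SeGAL1 had 3.95 and 11.1 FPKM on maltotriose, 5.95 and 6.26 FPKM on maltose, against 4.22 and 5.00 FPKM on glucose. The chromosome 10 SeGAL80 had 7.26 and 16.4 FPKM on maltotriose, 10.4 and 13.1 FPKM on maltose, against 6.78 and 7.59 FPKM on glucose. SeGAL4 had 11.4 and 12.0 FPKM on maltotriose, 7.22 and 11.1 FPKM on maltose, against 6.26 and 7.22 FPKM on glucose. The chromosome 13 SeGAL80 had 26.4 and 18.2 FPKM on maltotriose, 20.7 and 20.2 FPKM on maltose, against 12.6 and 14.7 FPKM on glucose, and was thus higher than on glucose in all 4 cultures without passing (adjusted p = 0.148 on maltose). With only the 4 maltose and glucose libraries of IMX1765 in the fit, 5 rows passed on maltose, including SeGAL10, SeGAL2 and both SeGAL80 rows. In that fit 1849 of all genes passed in either direction, in place of 505.

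Between maltotriose and maltose no galactose row passed in either strain. In IMX1939 this stood beside 1.48% of all genes in either direction, and the widest difference was that of SeGAL10 (1.36 ± 0.93, adjusted p = 0.378). In IMX1765 no row passed and 0% of all genes did, with SeGAL7 showing the widest difference (0.92 ± 0.60, adjusted p = 0.744). Neither comparison had a galactose row at an unadjusted limma p under 0.05, and voom on the recovered reads called none.

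The deletion of SeMALT1 was addressed by comparing IMX1939 with IMX1765 on the same sugar. The strains also differed over whole chromosomes. On glucose the genes of chromosomes 15 and 9 were lower in IMX1939 by medians of -0.36 and -0.40. On maltose their medians were -0.21 and 0.31, so that of chromosome 9 had the opposite sign. No S. eubayanus galactose row lies on these chromosomes, and the part of these shifts in the comparison was not tested. No galactose row passed on maltose, on maltotriose or in the test of whether the maltose response differed between the strains, and 0% of all genes did in any of the 3. On maltose the widest difference was that of SeGAL1, with 3.25 and 4.81 FPKM in IMX1939, against 5.95 and 6.26 FPKM in IMX1765 (-0.52 ± 0.51, adjusted p = 0.826). On maltotriose it was that of SeGAL10, with 12.4 and 80.6 FPKM in IMX1939, against 5.97 and 46.9 FPKM in IMX1765 (0.86 ± 0.93, adjusted p = 0.553). The maltose response of SeGAL3 was 0.59 ± 0.25 larger in IMX1939 (adjusted p = 0.959), the 1 row with an unadjusted p under 0.05 in these 3 comparisons. On glucose SeGAL3 had 19.8 and 22.8 FPKM in IMX1939, against 36.3 and 33.4 FPKM in IMX1765. On maltose the strains lay closer, at 57.2 and 69.3 FPKM in IMX1939, against 65.7 and 69.7 FPKM in IMX1765. Voom on the recovered reads called no row in any of them. The median of all genes was 0.13 higher in IMX1939 than in IMX1765 on maltose, and 0.01 after rescaling the libraries by their median ratio.

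Integration of ScMAL13 was set against the parent on glucose. In IMX1765 no galactose row passed, beside 0.0370% of all genes, and in IMX1939 none passed, beside 0.222%. SeGAL3 had 36.3 and 33.4 FPKM in IMX1765, against 23.4 and 21.8 FPKM in CDFM21L.1, without overlap (0.60 ± 0.18, adjusted p = 0.556), and it was the 1 row at an unadjusted p under 0.05. In IMX1939 the same gene had 19.8 and 22.8 FPKM, against 23.4 and 21.8 FPKM in CDFM21L.1 (-0.09 ± 0.18, adjusted p = 0.950). SeGAL3 lies on chromosome 4, whose genes were together higher by a median of 0.30 in IMX1765 and 0.32 in IMX1939 relative to CDFM21L.1, and the part of this shift in the SeGAL3 values was not tested. SeGAL1 had 4.22 and 5.00 FPKM in IMX1765 and 2.23 and 2.62 FPKM in IMX1939, against 2.78 and 2.78 FPKM in CDFM21L.1. SeGAL7 had 14.5 and 14.4 FPKM in IMX1765 and 5.33 and 9.68 FPKM in IMX1939, against 13.7 and 10.9 FPKM in CDFM21L.1. Voom called no row in either comparison. With only the 4 compared libraries in the fit, SeGAL1, SeGAL10 and SeGAL3 passed as higher in IMX1765. In that fit 1678 of all genes passed in either direction, in place of 2.

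In HTS020 the galactose genes responded to maltotriose on both genomes. Of 14 rows with a mean of at least 1 FPKM, ScGAL7 reached this mean through its maltotriose values alone, so that it had to differ, and is given as a description. Of the other 13 rows, 10 rose and none fell relative to glucose, 6 S. eubayanus and 4 S. cerevisiae rows, while 31.3% of 10990 genes rose. The rows of SeGAL4, ScGAL80 and the chromosome 13 SeGAL80 did not pass. The median difference was 1.68 for the 13 rows and -0.14 for all genes; rescaling by median ratio brought the median of all genes to 0.00. The 3 remaining members, ScGAL2 and both ScGAL10 rows, were under the filter. With no filter all 17 rows were tested and 12 rose, ScGAL7 and ScGAL2 being added, while 30.7% of 11292 genes rose, with medians of 1.52 and -0.11. Of the 14 rows with the filter 11 were called, also without either maltotriose or glucose culture, except that without the first maltotriose culture ScGAL7 left the test and 10 of 13 were called.

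**Figure D2:**
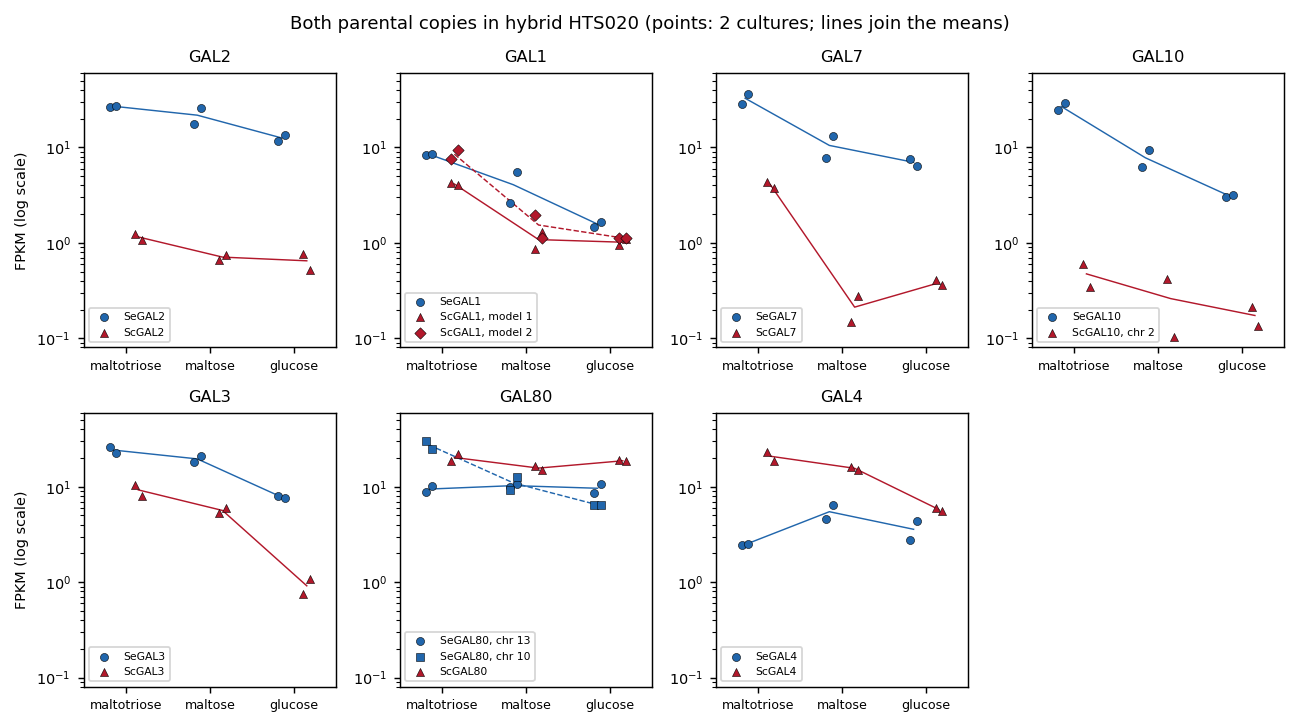
Level in FPKM (y axis, log scale) of the S. eubayanus (blue) and S. cerevisiae (red) copies of the 7 galactose genes in the 2 cultures of HTS020 on each sugar; lines join group means, and the ScGAL10 row of chromosome 6, at 0 in all 6 libraries, is not drawn. SeGAL7, SeGAL10 and SeGAL2 lie above their S. cerevisiae copies on every sugar, ScGAL4 lies above SeGAL4, and the 2 SeGAL80 rows exchange places between maltotriose and glucose.

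On the S. eubayanus genome of the hybrid the 2 cultures of a group were close together on maltotriose. SeGAL10 had 24.9 and 29.0 FPKM on maltotriose and 6.23 and 9.35 FPKM on maltose, against 3.01 and 3.18 FPKM on glucose. Its difference from glucose was 2.77 ± 0.20 on maltotriose (adjusted p = 3.49e-05) and 1.08 ± 0.20 on maltose (adjusted p = 0.0199). SeGAL7 had 28.9 and 36.7 FPKM on maltotriose and 7.76 and 13.2 FPKM on maltose, against 7.51 and 6.47 FPKM on glucose. Epimerase and uridylyltransferase genes were thus several times more abundant on maltotriose than on either other sugar, and SeGAL7 passed on maltotriose (2.07 ± 0.25, adjusted p = 0.000314) and not on maltose (0.49 ± 0.25, adjusted p = 0.230).

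The galactokinase gene SeGAL1 had 8.39 and 8.58 FPKM on maltotriose and 2.59 and 5.55 FPKM on maltose, against 1.47 and 1.67 FPKM on glucose (maltotriose 1.88 ± 0.28, adjusted p = 0.000808; maltose 0.92 ± 0.28, adjusted p = 0.0791). The permease gene SeGAL2 had 26.7 and 27.5 FPKM on maltotriose and 17.7 and 25.9 FPKM on maltose, against 11.7 and 13.5 FPKM on glucose. It passed on maltotriose (1.05 ± 0.20, adjusted p = 0.00241) and not on maltose (0.73 ± 0.20, adjusted p = 0.0580). In both genes the maltose cultures stood apart from each other, the second being the higher.

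Among the regulators SeGAL3 had 26.2 and 22.4 FPKM on maltotriose and 18.3 and 20.9 FPKM on maltose, against 7.96 and 7.64 FPKM on glucose. It rose on both (1.52 ± 0.15, adjusted p = 0.000128; 1.22 ± 0.15, adjusted p = 0.00398). The chromosome 10 SeGAL80 had 30.2 and 24.6 FPKM on maltotriose and 9.30 and 12.7 FPKM on maltose, against 6.42 and 6.50 FPKM on glucose, and rose on maltotriose (1.92 ± 0.19, adjusted p = 0.000116). This row moved like the structural genes, and the SeGAL80 row of chromosome 13 did not: it had 8.76 and 10.2 FPKM on maltotriose and 9.96 and 10.6 FPKM on maltose, against 8.57 and 10.7 FPKM on glucose (-0.02 ± 0.17, adjusted p = 0.916; 0.09 ± 0.17, adjusted p = 0.743). SeGAL4 had 2.453 and 2.499 FPKM on maltotriose and 4.57 and 6.38 FPKM on maltose, against 2.74 and 4.43 FPKM on glucose (-0.37 ± 0.24, adjusted p = 0.192; 0.51 ± 0.24, adjusted p = 0.186).

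On the S. cerevisiae genome the structural genes had low levels on glucose and on maltose. ScGAL7 had 4.36 and 3.77 FPKM on maltotriose and 0.149 and 0.274 FPKM on maltose, against 0.403 and 0.359 FPKM on glucose, from 162, 10 and 15 reads over the 2 cultures of each sugar. The mean maltotriose level was 10.7 ± 1.40 times the mean glucose level, and the maltotriose cultures lay apart from all others. The 2 models of ScGAL1, at chr2:295384-296211 and chr2:296322-296969 of the CBC-1 assembly, had 4.22 and 4.06 FPKM and 7.49 and 9.51 FPKM on maltotriose, 0.860 and 1.30 FPKM and 1.94 and 1.13 FPKM on maltose, against 0.938 and 1.09 FPKM and 1.11 and 1.13 FPKM on glucose. Both rose on maltotriose (1.35 ± 0.18, adjusted p = 0.000554, and 2.15 ± 0.22, adjusted p = 0.000133) and neither passed on maltose. With the reads of both models joined, ScGAL1 averaged 6.06 ± 0.56 FPKM on maltotriose and 1.28 ± 0.076 FPKM on maltose, against 1.06 ± 0.068 FPKM on glucose (SD, n = 2 each).

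ScGAL2 and ScGAL10 averaged under 1 FPKM and rested on few reads. ScGAL2 had 1.23 and 1.07 FPKM on maltotriose and 0.667 and 0.750 FPKM on maltose, against 0.772 and 0.524 FPKM on glucose, from 72, 51 and 40 reads. Its maltotriose cultures lay above all others, and with no filter it was called against glucose (0.39 ± 0.098, adjusted p = 0.0158) and against maltose (0.33 ± 0.098, adjusted p = 0.0297). The chromosome 2 ScGAL10 row had 0.598 and 0.347 FPKM on maltotriose and 0.418 and 0.103 FPKM on maltose, against 0.212 and 0.135 FPKM on glucose, from 36, 21 and 13 reads, and was not called with no filter (0.32 ± 0.14 on maltotriose against glucose, adjusted p = 0.0953). The chromosome 6 ScGAL10 row, at chr6:14779-16887 of the CBC-1 assembly, had 0 reads in all 6 libraries, where 3 reads would have given 0.0614 to 0.0804 FPKM. Reads that mapped to more than 1 place had been removed by the authors, so the level of a gene with a near-identical second copy is uncertain, and how much of ScGAL10 was lost in this way was not tested.

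The S. cerevisiae regulators responded on both α-oligoglucosides. ScGAL3 had 10.5 and 7.996 FPKM on maltotriose and 5.29 and 5.99 FPKM on maltose, against 0.745 and 1.08 FPKM on glucose, folds of 10.1 ± 3.31 and 6.16 ± 1.70. It rose on maltotriose (2.42 ± 0.19, adjusted p = 5.06e-05) and on maltose (1.80 ± 0.19, adjusted p = 0.00220). ScGAL4 had 23.3 and 18.5 FPKM on maltotriose and 16.2 and 15.0 FPKM on maltose, against 5.95 and 5.59 FPKM on glucose, and rose on both (1.68 ± 0.16, adjusted p = 0.000105; 1.29 ± 0.16, adjusted p = 0.00401). The sensor and the activator genes were thus the S. cerevisiae members called on maltose. ScGAL80 had 18.5 and 22.02 FPKM on maltotriose and 16.5 and 14.8 FPKM on maltose, against 19.0 and 18.4 FPKM on glucose (0.10 ± 0.15, adjusted p = 0.547; -0.24 ± 0.15, adjusted p = 0.302).

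In all, 4 of the 13 hybrid rows other than ScGAL7 rose on maltose relative to glucose (SeGAL10, SeGAL3, ScGAL3 and ScGAL4) and none fell, while 8.47% of all genes rose, with medians of 0.67 and -0.01. With no filter the count was 4 of 17, beside 6.64% of all genes. SeGAL10 was lost without either glucose culture (adjusted p up to 0.146), and also after quantile normalization and with the compared groups alone in the fit (adjusted p up to 0.0516), and SeGAL3 was lost without the second (0.0504). Without the first maltose culture, the one whose description names another medium, 8 rows rose, SeGAL1, SeGAL7, SeGAL2 and the chromosome 10 SeGAL80 having joined them; without the first glucose culture 3 rows were called and without the second 2.

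**Figure D3:**
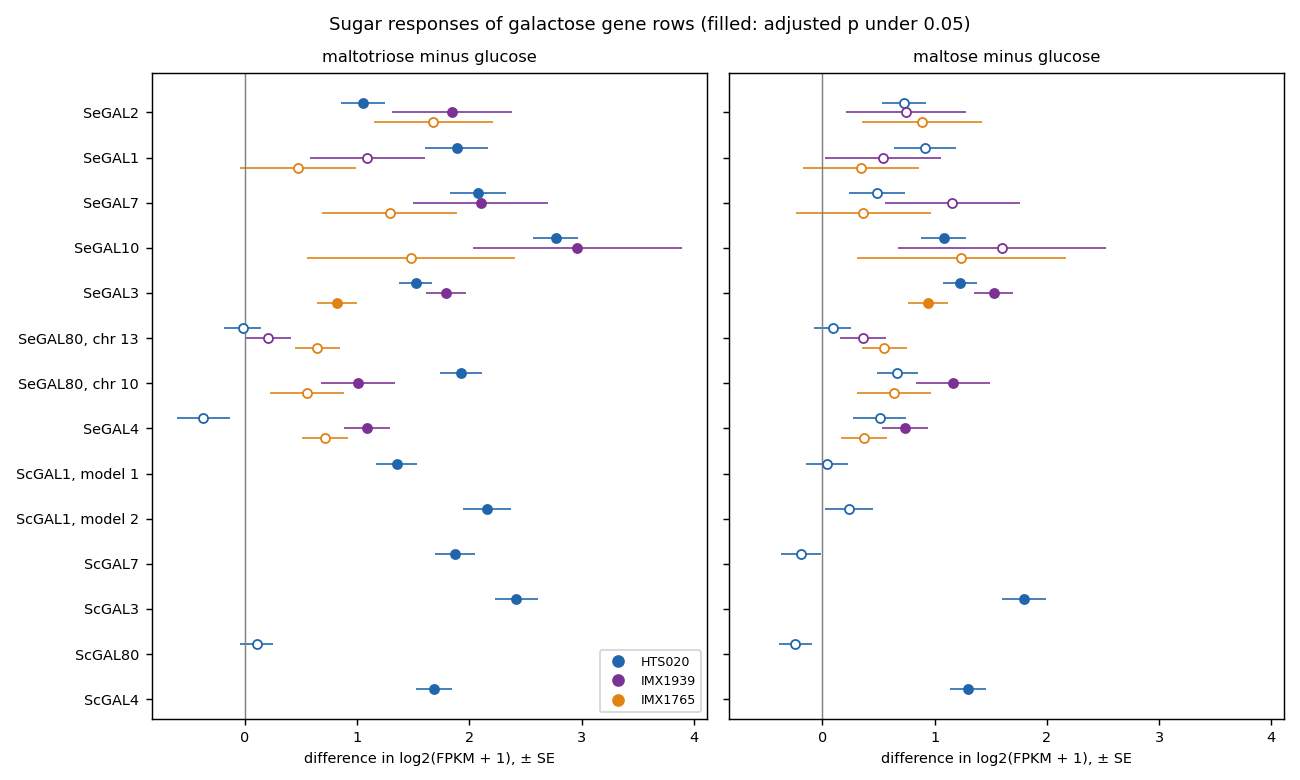
Difference in log2(FPKM + 1) between maltotriose (left) or maltose (right) and glucose, with its SE (x axis), for each galactose gene row tested (y axis) in HTS020, IMX1939 and IMX1765; filled points have an adjusted p under 0.05. SeGAL3 is filled in all 3 strains on both sugars, SeGAL80 of chromosome 13 and ScGAL80 in none, ScGAL7 is drawn although it entered the fit through its maltotriose values alone, and SeGAL4 lies at -0.37 in HTS020 and 1.09 in IMX1939 on maltotriose.

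Maltotriose and maltose cultures of the hybrid differed in most galactose rows, as in most genes. Relative to maltose, 7 of the 13 rows other than ScGAL7 rose on maltotriose, while 28.1% of all genes rose, and 1 row, SeGAL4, fell, while 36.7% of all genes fell. With no filter 9 of 17 rows rose and 1 fell, beside 27.7% and 35.2% of all genes. The largest differences of the 13 rows were those of the second ScGAL1 model (1.92 ± 0.22, adjusted p = 0.000280) and SeGAL10 (1.69 ± 0.20, adjusted p = 0.000380). SeGAL4 had 2.453 and 2.499 FPKM on maltotriose, against 4.57 and 6.38 FPKM on maltose (-0.88 ± 0.24, adjusted p = 0.0138). The calls of SeGAL1, ScGAL3 and SeGAL4 were each lost with at least 1 of the cultures left out (adjusted p up to 0.0889, 0.125 and 0.0639), SeGAL4 without 3 of the 4 cultures in turn, and without the first maltotriose culture 5 rows were called. Without the second maltose culture SeGAL2 passed as well and SeGAL4 did not. Rescaling by median ratio added ScGAL80 and ScGAL4 (0.48 and 0.52). Labels and sample descriptions disagree on the medium of 3 of these 4 libraries.

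Both copies of a gene sit in the same library of HTS020, and the level of the S. eubayanus copy was therefore set against that of the S. cerevisiae copy within each library. GAL7, GAL3 and GAL4 had a single row averaging at least 1 FPKM on each genome and entered this test with 4615 gene pairs, GAL7 through the maltotriose level of ScGAL7 alone. On glucose SeGAL3 stood at 10.7 and 7.04 times ScGAL3 and was called as S. eubayanus-biased (log2 ratio of 2.20 ± 0.12, adjusted p = 1.82e-06), while 5.63% of all pairs were called in that direction. SeGAL4 stood at 0.460 and 0.791 times ScGAL4, a log2 ratio of -0.59 ± 0.18 that did not reach the required size of 1.

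The ratios of GAL3 and GAL4 moved towards S. cerevisiae on maltotriose. SeGAL3 stood at 2.48 and 2.80 times ScGAL3 on maltotriose, against 10.7 and 7.04 times on glucose, a shift of -0.90 ± 0.16 (adjusted p = 0.00178). SeGAL4 stood at 0.105 and 0.135 times ScGAL4 on maltotriose, against 0.460 and 0.791 times on glucose, a shift of -2.06 ± 0.26 (adjusted p = 0.000244). Beside these 2 pairs, 32.1% of all pairs shifted in that direction. Both calls held with each of the 4 cultures left out. SeGAL7 stood at 6.63 and 9.74 times ScGAL7 on maltotriose and 52.0 and 48.3 times on maltose, against 18.6 and 18.0 times on glucose, where ScGAL7 had 8 and 7 reads. The sign of its fitted shift on maltotriose depended on the value added before taking logarithms (0.20 with 1 FPKM and -0.90 with 0.1 FPKM), and no call is read from it.

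On maltose no ratio passed, beside 4.03% of all pairs in either direction, though all 3 had an unadjusted limma p under 0.05. The ratios of GAL3 and GAL4 lay lower than on glucose and that of GAL7 higher. SeGAL3 stood at 3.45 and 3.49 times ScGAL3 on maltose, against 10.7 and 7.04 times on glucose (-0.57 ± 0.16, adjusted p = 0.107). With 0.1 FPKM added in place of 1 the GAL3 shift was -1.20 and passed (limma adjusted p = 0.0238). SeGAL4 stood at 0.281 and 0.426 times ScGAL4 on maltose, against 0.460 and 0.791 times on glucose (-0.78 ± 0.26, adjusted p = 0.155). The GAL4 shift passed with a replicate block (-0.78, limma adjusted p = 0.0391). The GAL7 shift was 0.68 ± 0.24 (adjusted p = 0.177), and 1.19 with 0.1 FPKM added (adjusted p = 0.0443), from 3 and 7 ScGAL7 reads on maltose.

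For the pairs outside the test the values are given as a description. SeGAL2 stood at 21.6 and 25.7 times ScGAL2 on maltotriose and 26.6 and 34.5 times on maltose, against 15.2 and 25.7 times on glucose. With no filter this pair was called as S. eubayanus-biased on glucose (log2 ratio of 3.05, adjusted p = 1.29e-06) and as shifted on maltotriose (0.66, adjusted p = 0.0271), although its ratios on the sugars overlap before 1 FPKM is added. SeGAL1 stood at 1.48 and 1.33 times the joined ScGAL1 on maltotriose and 1.94 and 4.52 times on maltose, against 1.45 and 1.51 times on glucose. SeGAL10 stood at 41.6 and 83.5 times the chromosome 2 ScGAL10 on maltotriose and 14.9 and 90.9 times on maltose, against 14.2 and 23.6 times on glucose, with at most 36 ScGAL10 reads on a sugar. The chromosome 13 SeGAL80, set against ScGAL80 on the same chromosome, stood at 0.473 and 0.461 times on maltotriose and 0.603 and 0.713 times on maltose, against 0.450 and 0.582 times on glucose. In every culture the S. eubayanus copy was thus the higher one for the transferase, epimerase, permease and sensor genes. It was the lower one for the activator gene and this repressor gene. For the galactokinase gene it was the higher one against the joined ScGAL1. The second ScGAL1 model by itself had 7.49 and 9.51 FPKM on maltotriose, against 8.39 and 8.58 FPKM for SeGAL1.

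The 2 SeGAL80 rows, 1296 and 1308 bases long, were compared within each library as a description. S. uvarum, a close relative of S. eubayanus, is known to carry a second GAL80-like gene named GAL80B; the tables give both rows the name GAL80 and do not say which is which. In HTS020 the chromosome 10 row stood at 3.45 and 2.43 times the chromosome 13 row on maltotriose and 0.933 and 1.19 times on maltose, against 0.749 and 0.606 times on glucose. In IMX1939 it stood at 0.330 and 0.635 times on maltotriose and 0.501 and 0.426 times on maltose, against 0.183 and 0.301 times on glucose. The chromosome 10 row was thus the minor one in every culture of the S. eubayanus strains and the major one on maltotriose in the hybrid.

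SeGAL10 and SeGAL1, which face each other across a shared upstream region, did not keep a fixed ratio. In IMX1939 SeGAL10 stood at 3.98 and 6.79 times SeGAL1 on maltotriose and 2.32 and 3.83 times on maltose, against 1.27 and 1.42 times on glucose. In HTS020 it stood at 2.97 and 3.38 times on maltotriose and 2.41 and 1.69 times on maltose, against 2.05 and 1.90 times on glucose. In CDFM21L.1 on glucose the ratio was 1.30 and 1.04. In IMX1765 SeGAL10 stood at 1.51 times in the shallow and 4.20 times in the second maltotriose culture, against 1.29 and 1.13 times on glucose.

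**Figure D4:**
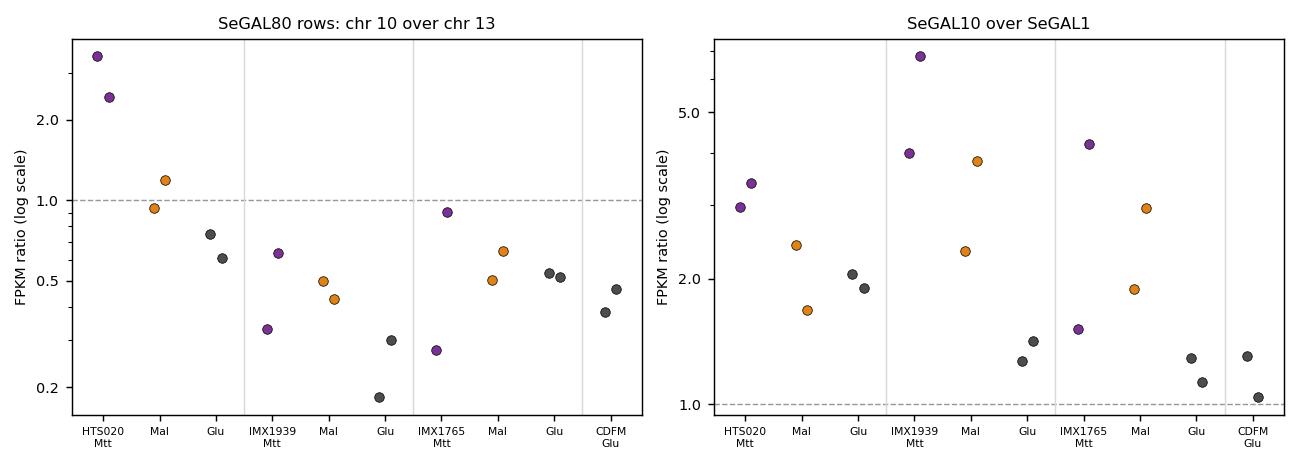
Ratio of FPKM (y axis, log scale) within each culture of the chromosome 10 to the chromosome 13 SeGAL80 row (left) and of SeGAL10 to SeGAL1 (right), by strain and sugar; points are cultures and the dashed line marks equal levels. The SeGAL80 ratio exceeds 2 in both HTS020 maltotriose cultures only, and the SeGAL10 to SeGAL1 ratio is higher on maltotriose than on glucose in HTS020, IMX1939 and IMX1765.

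Levels of S. eubayanus rows in HTS020 and in the S. eubayanus strains come from tables normalized separately and were not tested against each other. With the hybrid values rescaled to the reads on S. eubayanus genes alone, SeGAL3 averaged 50.5 FPKM on maltotriose in HTS020, against 76.5 FPKM in IMX1939, and SeGAL2 averaged 56.3 against 105. The chromosome 10 SeGAL80 averaged 57.0 FPKM in HTS020, against 9.12 in IMX1939, and SeGAL4 5.15 against 14.4. On glucose the same rows averaged 13.1 FPKM in HTS020, against 6.67 in CDFM21L.1, for the chromosome 10 SeGAL80, and 7.25 against 6.90 for SeGAL4. The order of the hybrid and the S. eubayanus strains therefore was not the same for the 2 regulators on maltotriose.

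Over the 13 S. eubayanus libraries other than the shallow one, the genes most like each row were found by Pearson correlation of log2(FPKM + 1), as a description of libraries that share strains and sugars. SeGAL1 was closest to SeGAL7 (r = 0.93), GPM2 (0.92) and SeGAL10 (0.91), so that both of its cluster neighbours were among its 3 nearest of 4928 genes. SeGAL3 was closest to INH1 (0.99), PTR2 (0.99) and SCS7 (0.98). SeGAL4 was closest to TDA3 (0.97), RGT1 (0.97) and RAV1 (0.97), and SeGAL2 to FLO1 (0.97), YOR352W (0.96) and RIM4 (0.96). SeGAL10 followed YNL194C (0.97), YNL195C (0.97) and YLR446W (0.97), and SeGAL7 followed YDR119W-A (0.96), YLR446W (0.95) and SeGAL10 (0.95). The chromosome 10 SeGAL80 was nearest to AIM39 (0.93), PEX18 (0.92) and TDA11 (0.92), and the chromosome 13 SeGAL80 to IES5 (0.93), OAZ1 (0.92) and RDL2 (0.91). Between SeGAL1 and SeGAL80 rows r was 0.81 for chromosome 10 and 0.12 for chromosome 13. With the other galactose genes included, r ranged from 0.63 (SeGAL2) to 0.83 (SeGAL3) for chromosome 10. For chromosome 13 it ranged from 0.12 (SeGAL1) to 0.61 (SeGAL3).

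Genes around the pathway were read from short lists of related genes, whose counts stand beside the shares of all genes. These shares were 23.8% higher and 16.0% lower in IMX1939 on maltotriose and 13.8% higher on maltose, and in HTS020 31.3% higher and 39.7% lower on maltotriose and 8.47% higher and 2.98% lower on maltose. Of the genes that join galactose use to glycolysis (PGM1, PGM2 and UGP1 were measured; MEL1 had no row), PGM2, the major phosphoglucomutase gene, rose in IMX1939 on maltotriose (3.75 ± 1.28, adjusted p = 0.0424), the 1 of 3 called there. In HTS020 on maltose it rose on both genomes (ScPGM2 2.93, adjusted p = 0.0454; SePGM2 2.83, adjusted p = 0.0344), 1 of 3 on each. The cultures spread widely there, with folds of the means of 10.7 ± 11.2 for ScPGM2 and 9.37 ± 8.96 for SePGM2 (propagated SD). On maltotriose the minor phosphoglucomutase gene PGM1 fell in HTS020 on both (SePGM1 -2.62, adjusted p = 1.85e-05; ScPGM1 -1.84, adjusted p = 3.40e-05) and no other gene of the list was called. In IMX1765, and in IMX1939 on maltose, none of the 3 passed.

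Of 4 other genes known to be bound by Gal4 in S. cerevisiae (GCY1, MTH1, PCL10 and FUR4), 2 rose and 1 fell in IMX1939 on maltotriose, while 23.8% of all genes rose and 16.0% fell. GCY1, which encodes a glycerol dehydrogenase, rose by 4.53 (adjusted p = 0.000552), PCL10, a cyclin gene, rose by 1.40 (adjusted p = 0.00661) and the uracil permease gene FUR4, which also neighbours the GAL cluster, fell by 1.08 (adjusted p = 0.0109). On maltose GCY1 and PCL10 rose in IMX1939 (2.06, adjusted p = 0.0335, and 1.06, adjusted p = 0.0388). In HTS020 GCY1 rose on maltose on both genomes (SeGCY1 2.38, adjusted p = 0.00336; ScGCY1 1.33, adjusted p = 0.0238), and on maltotriose 1 of 4 S. eubayanus rows (SeGCY1 2.33, adjusted p = 0.000315) and 3 of 4 S. cerevisiae rows rose (ScPCL10 first, 1.32, adjusted p = 0.000663), while 31.3% of all genes rose. KAP104, the other neighbour of the cluster, fell in HTS020 on maltotriose (SeKAP104 -1.04, adjusted p = 0.00114; ScKAP104 -0.68, adjusted p = 0.00543), while ScFUR4 on the other side of the cluster rose (0.62, adjusted p = 0.0426). None of these genes passed in IMX1765. There SeGCY1 averaged 160 FPKM on maltotriose, with the shallow culture included, against 123 FPKM on glucose. In IMX1939 it averaged 194 FPKM on maltotriose, against 7.97 FPKM on glucose, so the strains differed mainly on glucose.

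Of 10 genes of glucose repression and its relief, 3 rose and 4 fell in IMX1939 on maltotriose, while 23.8% of all genes rose and 16.0% fell, led by the repressor genes MIG1 (-2.07, adjusted p = 0.00887) and MIG2 (-1.85, adjusted p = 0.0110). In HTS020 on maltose MIG2 fell on both genomes (ScMIG2 -1.66, adjusted p = 0.0177; SeMIG2 -1.22, adjusted p = 0.0248), among 3 S. cerevisiae and 2 S. eubayanus rows that fell, while 2.98% of all genes fell, and 1 S. cerevisiae row that rose. On maltotriose 7 S. cerevisiae and 5 S. eubayanus rows of the list fell, of 10 each, and 1 on each genome rose, while 39.7% of all genes fell and 31.3% rose; the largest change was that of HXK2, the hexokinase gene of glucose repression (ScHXK2 -3.86, adjusted p = 2.52e-06; SeHXK2 -3.59, adjusted p = 2.50e-06). IMX1765 had no call in this list on either sugar, and IMX1939 on maltose had 1, GAL83 (0.56, adjusted p = 0.0153). GAL11, the Mediator subunit gene that Gal4 contacts, and LAP3, also called GAL6, both rose in IMX1939 on maltotriose (0.53, adjusted p = 0.0243, and 0.96, adjusted p = 0.0199), and GAL11 rose in HTS020 on maltotriose on both genomes (ScGAL11 0.81, adjusted p = 0.00187; SeGAL11 0.56, adjusted p = 0.0317). SeLAP3 alone of these rows rose in HTS020 on maltose (0.65, adjusted p = 0.0451).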

How the data were processed

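RNA was sequenced by the authors in 20 libraries (14 of S. eubayanus strains, 6 of HTS020), with a kit that does not mark strand. Reads were aligned with STAR 2.5.3a to the CDFM21L.1 assembly, joined with CBC-1 for the hybrid, multiply mapped reads were removed, and the authors deposited FPKM per gene and library; the sources name both htseq-count and featureCounts as the counter. Deposited FPKM multiplied by gene length gave whole reads for 100% of values (tolerance 0.01), from which depth was taken. Rows were used as deposited.

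FPKM was tested as log2(FPKM + 1) with limma 3.58.1 in R 4.3.3 (lmFit, eBayes with trend) on genes averaging 1 FPKM or more, in 1 fit of the 14 S. eubayanus libraries and 1 of the 6 hybrid libraries, with Benjamini-Hochberg adjustment over all genes tested. Calls had an adjusted p under 0.05. Ratios between genomes used the difference of log2 values within a library; on glucose an absolute log2 ratio of 1 was also required. With 2 cultures against 2 an exact permutation test cannot go below 0.333, so no such test was used. The scripts were tested on simulated reads. DESeq, which the study used on its counts, was not run on the deposited FPKM, and voom on recovered reads was an alternative. Motifs were searched in the S288C R64 sequence with Python 3.11.15.

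Named genes were all rows of the 7 names and, from each list of related genes, at most the 2 with the largest change among those called; likeness took the 3 genes of highest r among those averaging 10 FPKM or more. The members and lists were chosen with earlier results of these data known. Alternatives were another pseudocount, no or a stricter filter, 2 rescalings, no trend, a replicate block, fits of the compared groups alone, voom, and leaving out cultures. Crossed blocks, pairs by position and ratios of 2 rows were added after seeing the data. The cultures were biological duplicates per the methods, and intervals cover the spread between them only.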

Additional observations from a re-analysis of the deposited data

Results flagged for a closer look

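The balance between both copies, S. eubayanus over S. cerevisiae, shifted on maltotriose relative to glucose in HTS020 for 2 galactose genes by a test of the difference between the copies: GAL3 by -0.90 and GAL4 by -2.06 (log2, limma adjusted p = 0.00178 and 0.000244), in both maltotriose cultures against both glucose cultures. Beside them, 32.1% of all 4615 pairs shifted in that direction, and GAL7, the other galactose pair tested, was not called. The descriptions of both maltotriose cultures name another medium, and the part of this in the shift was not tested.

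The level of SeGAL4 lay on opposite sides of the other sugars in the hybrid and the S. eubayanus strains, in values of which 2 passed the test. On maltotriose relative to glucose both cultures were lower in HTS020 (log2 difference -0.37, not passing) and higher in IMX1939 (1.09, passing) and IMX1765 (0.71, not passing). On maltotriose relative to maltose both were lower in HTS020 (-0.88, passing, and lost without 3 of the 4 cultures in turn) and higher in IMX1939 (0.35) and IMX1765 (0.34), neither passing. The difference between the strains was not tested, since the tables were normalized separately.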

How the results depend on the processing

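Over 1874 recomputed differences of galactose rows 67 changed sign, and none of these had passed the test as reported. Among the reported ones, the SeGAL10 difference between IMX1939 and IMX1765 on maltotriose became -0.22 with voom, and the GAL7 ratio shift on maltotriose became -0.90 with a pseudocount of 0.1; with 1 culture left out, values ranged from -0.53 to 2.25 for the same SeGAL10 difference, from -0.38 to 1.43 for the SeGAL2 difference between these strains, from -0.27 to 1.37 for the SeGAL1 difference of maltotriose from maltose in IMX1939, and from -0.050 to 0.27 for the GAL7 ratio shift. The cause was not tested.

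Numbers of galactose rows called moved as follows. IMX1765 maltose against glucose had 1 row, 5 with the compared groups alone in the fit and 2 without the shallow culture in it. IMX1765 maltotriose against glucose had 1 row, 0 after median-ratio rescaling or with the compared groups alone, 2 after quantile normalization or with a replicate block, and 4 with voom. IMX1939 maltose against glucose had 3, and 1 under either rescaling; IMX1939 maltotriose against glucose had 6, and 2 with the compared groups alone. IMX1765 against CDFM21L.1 had 0, and 3 with the compared groups alone. With a filter at 5 FPKM, which removes low rows, HTS020 maltotriose had 7 in place of 11 against glucose and 4 in place of 9 against maltose, and the ratio tests on glucose and on maltotriose 1 each in place of 2; these numbers count ScGAL7, which reached 1 FPKM through its maltotriose values alone. The ratio shift on maltose had 0, 2 with a pseudocount of 0.1 and 1 with a replicate block.

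Leaving out 1 culture gave 0 rows for IMX1765 maltose, 0 to 5 for IMX1765 maltotriose, 1 for IMX1939 maltose and 2 to 7 for IMX1939 maltotriose, each against glucose. It gave 2 to 8 for HTS020 maltose and 10 to 11 for HTS020 maltotriose against glucose, 5 to 9 for maltotriose against maltose, and the reported 0 or 2 elsewhere.

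Over all genes, the number called moved by over 1.5 times in several settings, and the cause was not tested. With the compared groups alone it was 1849 in place of 505 for IMX1765 maltose against glucose, 0 in place of 334 for IMX1765 maltotriose, 1177 in place of 2152 for IMX1939 maltotriose, 1678 in place of 2 for IMX1765 against CDFM21L.1 and 831 in place of 1258 for HTS020 maltose. Without the shallow culture in the fit it was 965 for IMX1765 maltose, 1410 in place of 873 for IMX1939 maltose, 729 in place of 80 for IMX1939 maltotriose against maltose, and 143 in place of 12 for IMX1939 against CDFM21L.1. Voom called 812 for IMX1765 maltose, 928 for IMX1765 maltotriose, 396 for IMX1939 maltotriose against maltose and 67 for IMX1939 against CDFM21L.1. Median-ratio rescaling turned 1286 higher and 866 lower genes into 1111 and 1143 for IMX1939 maltotriose, and 746 and 127 into 581 and 245 for IMX1939 maltose. Quantile normalization gave 998 and 1409, and 540 and 377; for HTS020 maltose it gave 690 and 521 in place of 931 and 327.

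The labels number cultures 1 and 2 in every group without a shared batch. Same-numbered deviations correlated at 0.57 to 0.70 among the IMX1939 groups, and the replicate block changed no other number of galactose rows by over 1.5 times; over all genes it called 220 in place of 80 for IMX1939 maltotriose against maltose. They correlated at -0.46 for IMX1939 and CDFM21L.1 on glucose and -0.14 for HTS020 on maltotriose and maltose; crossing the numbers, chosen after seeing the data, gave 0 and 9 rows, as without a block. Pairing copies by position, also added later, left 2, 0 and 2 ratio calls. Of 110 mean levels recomputed, 15 moved by over 1 SD under rescaling or with the ScGAL1 models joined. Rows under about 1 FPKM rest on few reads, and the IMX1765 maltotriose group on 1 deep library.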
